A study of Gallus gallus with 16 samples.

Results

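A set of 10 enzymes that build purine nucleotides from small precursors, or convert the first purine into AMP and GMP, was followed in the livers of 16 broiler chickens. They are PRPS2, PPAT, GART, PAICS, ADSL, ATIC, GMPS, IMPDH2, ADSS1 and ADSS2, chosen as the genes whose symbol in the array's annotation is exactly one of these names. All 10 were found, each on 1 array feature, among 11528 genes with a symbol of their own. Every bird was a male sampled on day 21. The birds had received 1 of 4 feeds that the labels give only as dietary treatments A, E, F and H, with 4 birds each. The study's title names saponins and essential oils of oregano, thyme, rosemary and star anise, but the labels tie none of the letters to a feed additive or to an unsupplemented diet. Every pair of diets was therefore compared, and each array was taken as 1 bird. The labels do not say how the birds were housed or sampled beyond this, so p-values measure the spread between these samples.

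Purines are assembled step by step on a phosphoribosyl pyrophosphate (PRPP) backbone until inosine monophosphate (IMP), the first complete purine nucleotide, is reached. From there the path forks, to GMP through IMPDH2 and GMPS, and to AMP through an adenylosuccinate synthetase and ADSL. In birds the liver is a main site of this pathway, since surplus amino acid nitrogen is built into purines and excreted as uric acid. Liver signal is measured here on the log2 scale, as the authors deposited it, so a difference between birds is the log2 of a ratio of linear signals. Features differ in how strongly they bind their target, so levels are compared between birds for 1 gene and not between genes.

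Of 16 listed hepatocyte markers 13 were measured, and their median level was at the 99.8 percentile of all features. That of the 8 marker lists of other cells ran from 37.8 for erythroid cells to 97.6 for macrophages, as a rough guide, since features differ in binding. Array medians lay between 6.11 and 6.21. The arrays of replicates 3 and 4 of diet H were unlike the others. Their mean correlation with the other arrays was 0.948 and 0.946, against at least 0.966 for each of the other 14 arrays. The deviation of their values also ran against the genomic span of the gene, with Spearman's rho of -0.35 and -0.36, beyond the range of -0.32 to 0.33 in the other 14 arrays. Differences of the genes named in comparisons with diet H are given with and without these birds. In bulk tissue, fewer cells of a type and less RNA per cell cannot be told apart.

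None of the 10 genes passed limma's test of a difference between diets with Benjamini-Hochberg adjustment over 20804 features, in any of the 6 pairwise comparisons or in the F test over the 4 diets. The share of all features that passed was 0% in each of these tests. What the livers did show was a spread from bird to bird, wide in some of the genes and in part shared. PRPS2, PPAT, GART and PAICS were at their lowest in the same 2 birds, IMPDH2 was high where ADSS1 and ADSS2 were low, and ADSL went with ATIC. Much of that pattern, but not all of it, rested on those birds, diet H replicates 3 and 4. They also lay apart in many other genes: 21.2% of all genes had both below the other 14 birds and 15.3% both above. The range over the 16 birds ran from 0.65 log2 units for GMPS to 2.48 for ADSS2. That of the 4 diet means ran from 0.21 to 0.73, but a range of means is never wider than that of the single values. The SD over the birds was at the 10.5 percentile of all genes for GMPS and at the 97.1 percentile for ADSS2.

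**Figure D1:**
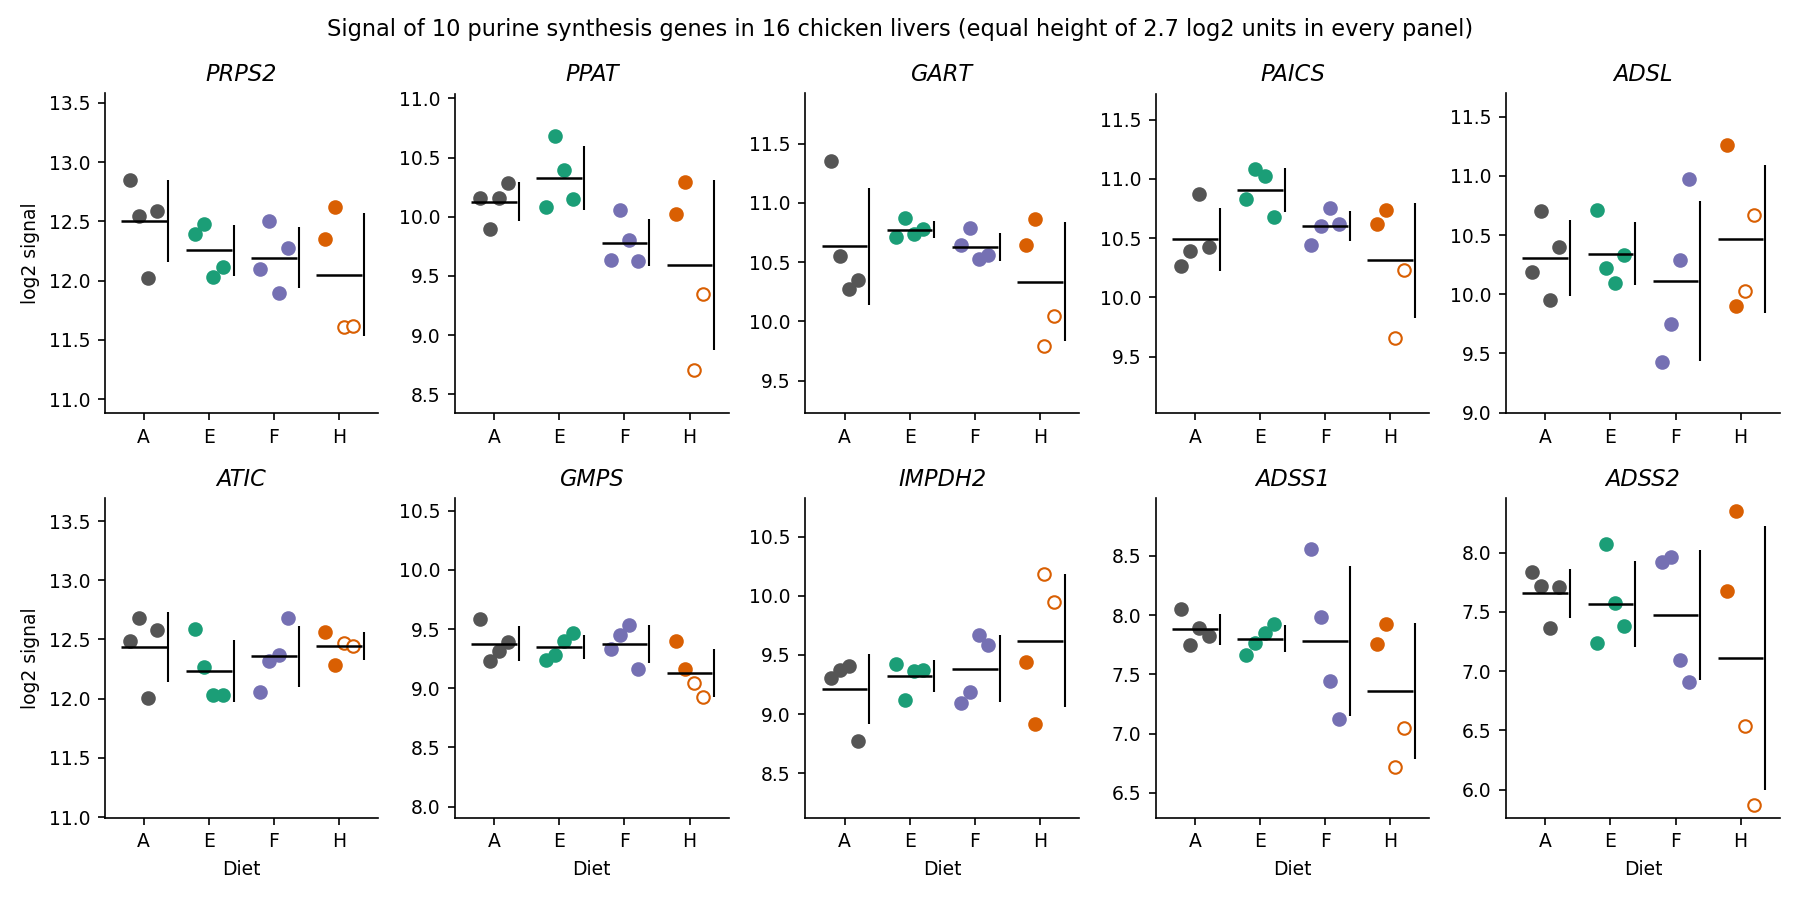
Log2 signal (vertical axis) of each gene in each bird by diet (horizontal axis), in panels of equal height. Points are birds, horizontal lines the mean of 4 birds and vertical lines 1 SD on either side. Open circles are diet H replicates 3 and 4, which lie below the other 14 birds for 7 genes and above them for IMPDH2. Of all 11528 genes, 21.2% had both of these birds below the other 14 and 15.3% had both above.

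At the entry to the pathway, PRPS2 makes PRPP from ribose 5-phosphate and ATP. In order of replicates 1 to 4, its log2 signal was 12.85, 12.55, 12.02 and 12.59 with diet A, 12.40, 12.48, 12.03 and 12.11 with diet E, 12.10, 12.50, 11.90 and 12.28 with diet F and 12.35, 12.62, 11.61 and 11.62 with diet H. All diets overlapped, and the lowest values were those of diet H replicates 3 and 4, while the other diet H birds lay within the diet A range. The diet means stood in the order A, E, F, H, from 12.50 ± 0.35 to 12.05 ± 0.52 (SD, n = 4), and no neighbours in such an order passed limma's adjusted test, in PRPS2 or in the other 9 genes.

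PPAT, amidophosphoribosyltransferase, carries out the first committed step and is inhibited by the nucleotides at the pathway's end. Its log2 signal was 10.16, 9.90, 10.16 and 10.29 with diet A, 10.08, 10.68, 10.40 and 10.15 with diet E, 9.64, 10.05, 9.80 and 9.63 with diet F and 10.02, 10.30, 8.70 and 9.35 with diet H. Every diet E bird was above every diet F bird, the only comparison of any of the 10 genes in which 2 diets did not overlap. Among all features, 0.538% were likewise higher in every diet E bird than in every diet F bird. Diet E had the highest mean, 10.33 ± 0.27, ahead of diet A at 10.13 ± 0.16, diet F at 9.78 ± 0.20 and diet H at 9.59 ± 0.72 (SD, n = 4 each).

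GART joins 3 activities of the middle of the pathway in 1 protein: glycinamide ribonucleotide synthetase, its formyltransferase and aminoimidazole ribonucleotide synthetase. Its signal was 11.35, 10.55, 10.28 and 10.35 with diet A, 10.71, 10.87, 10.73 and 10.78 with diet E, 10.65, 10.79, 10.52 and 10.56 with diet F and 10.65, 10.86, 9.79 and 10.04 with diet H. Diet A replicate 1 was the highest of the 16 birds and diet H replicates 3 and 4 were the lowest. Diets E and F were tight, with SDs of 0.07 and 0.12, against 0.49 for diet A and 0.50 for diet H.

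PAICS follows with the carboxylase and the synthetase that adds aspartate. Its signal was 10.27, 10.39, 10.87 and 10.43 with diet A, 10.83, 11.08, 11.03 and 10.68 with diet E, 10.44, 10.61, 10.75 and 10.62 with diet F and 10.62, 10.74, 9.66 and 10.23 with diet H. Diet E held 3 of the 4 highest birds, and only diet A replicate 3 reached into the diet E range from diet A. The mean was highest with diet E, at 10.91 ± 0.19, and lowest with diet H, at 10.31 ± 0.49 (SD, n = 4 each).

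ADSL, adenylosuccinate lyase, releases fumarate both on the way to IMP and on the way from IMP to AMP. It read 10.19, 10.70, 9.95 and 10.40 with diet A, 10.71, 10.22, 10.10 and 10.33 with diet E, 9.43, 9.75, 10.29 and 10.98 with diet F and 11.26, 9.90, 10.03 and 10.67 with diet H. The spread lay within the diets: diets F and H each held both low and high birds, with SDs of 0.68 and 0.63, and diet H replicates 3 and 4 were inside the range of the others. ATIC, which closes the ring to give IMP, read 12.49, 12.68, 12.01 and 12.58 with diet A, 12.59, 12.27, 12.03 and 12.03 with diet E, 12.06, 12.32, 12.37 and 12.68 with diet F and 12.57, 12.29, 12.47 and 12.45 with diet H. It was among the steadier genes, with a range of 0.67 over the 16 birds, and here too diet H replicates 3 and 4 were unremarkable.

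On the branch to GMP, IMPDH2 oxidises IMP to xanthosine monophosphate. Its signal was 9.30, 9.37, 9.40 and 8.77 with diet A, 9.42, 9.12, 9.36 and 9.38 with diet E, 9.09, 9.19, 9.67 and 9.59 with diet F and 9.44, 8.91, 10.18 and 9.94 with diet H. It was the only one of the 10 genes with diet H replicates 3 and 4 above all other birds, although diet H replicate 2 was the second lowest of all. GMPS, which aminates xanthosine monophosphate to GMP, read 9.58, 9.23, 9.31 and 9.39 with diet A, 9.24, 9.28, 9.40 and 9.46 with diet E, 9.33, 9.45, 9.53 and 9.16 with diet F and 9.40, 9.16, 9.04 and 8.93 with diet H. Its SD over the 16 birds, 0.18, was the smallest of the 10 genes, and diet H replicates 3 and 4 were the lowest birds.

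On the branch to AMP, ADSS1 and ADSS2 are adenylosuccinate synthetases, known in mammals as the muscle and the more widely expressed form. ADSS1 read 8.05, 7.75, 7.89 and 7.82 with diet A, 7.66, 7.76, 7.85 and 7.93 with diet E, 8.56, 7.99, 7.44 and 7.12 with diet F and 7.75, 7.92, 6.71 and 7.04 with diet H. Diets A and E were tight, while diet F held the highest bird and diet H the lowest. ADSS2 read 7.84, 7.72, 7.36 and 7.71 with diet A, 7.24, 8.07, 7.57 and 7.38 with diet E, 7.92, 7.96, 7.10 and 6.90 with diet F and 7.67, 8.35, 6.54 and 5.87 with diet H. Its range of 2.48 log2 units, 5.59-fold in linear signal, was the widest of the 10 genes and ran within diet H alone, from replicate 4 at the bottom to replicate 2 at the top. The SD of ADSS2 over the birds was at the 97.1 percentile of all genes and that of GMPS at the 10.5 percentile.

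Diet H replicates 3 and 4 were both below the other 14 birds for 7 of the 10 genes, namely PRPS2, PPAT, GART, PAICS, GMPS, ADSS1 and ADSS2, and both above them for 1, IMPDH2. Of all 11528 genes, 21.2% had both birds below the other 14 and 15.3% had both above. The median deviation of the 10 genes from their means was -0.72 and -0.46 in these birds, against -0.15 to 0.24 in the others. The 7 genes that were low spanned 23747 to 44008 bases in the RefSeq annotation, and the other 3 genes 11478 to 17986 bases, with a median of 16339.5 over all genes with a known span. Marker lists of several cell types also lay outside the range of the other birds here. For the 13 measured hepatocyte markers the log2 of the summed linear signal was 16.67 and 16.76, below 16.84 to 16.99 in the other birds, while their median deviation, -0.20 and -0.01, was outside the range of -0.08 to 0.11 in replicate 3 alone. F2, ALB, FGG and APOB were each below all 14 other birds, with ALB at 13.67 and 13.69 against 13.80 to 13.97. They were picked for a large r with the mean of the 10 standardized purine gene values, which was itself lowest in these birds, at -1.24 and -0.90. Not all hepatocyte markers went this way: 10 of the 13 had a positive r with that mean, and the lowest r was -0.69. The median deviation of 7 measured endothelial markers was -0.40 and -0.30, below the range of -0.07 to 0.21 in the other birds, and the log2 of their summed linear signal was 10.82 and 10.94 against 11.26 to 11.82. The list was not of one direction: CDH5 and PECAM1 were below all other birds, and EGFL7 and TIE1 above them, with TIE1 at 7.67 and 7.63 against 6.37 to 7.28. The median deviation of the 8 stellate cell and fibroblast markers was above that of the other birds, at 0.41 and 0.70 against -0.42 to 0.31. Their log2 sums were 11.60 and 11.92 against 10.97 to 11.74, so that of replicate 3 was inside the range. Single markers differed: RGS5 and PDGFRB were above all other birds in both, COL1A2 in replicate 4 alone, and LUM in replicate 4 was below them, at 6.45 against 6.66 to 8.02. The median deviation of the 9 intestine and pancreas markers was above that of the other birds as well, at 0.73 and 0.41 against -0.42 to 0.34. Their log2 sums were 11.25 and 11.30 against 9.07 to 10.97, and most of this signal was APOA4, at 10.81 and 11.08. APOA4 had a mean of 9.64 and read at least 8.23 in every liver, so this sum does not measure intestine or pancreas tissue. Of the 9, 7 had a mean above the 20th percentile of all values. The dim SI, with a mean of 3.26, was inside the range of the other birds in replicate 4, at 3.45 against 3.06 to 3.51. The part of these shifts in the purine gene values was not tested.

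Set against diet A, diet E had 5 genes with a higher mean and 5 with a lower one, and a median difference of 0.00077 against 0.0086 over all genes. The most distant was PAICS, at 0.41 ± 0.21 (log2 difference ± SE, n = 4 birds a diet), which is 1.33-fold, with a 95% interval of -0.03 to 0.86 and an adjusted p of 0.9997 in limma. All 4 diet E birds were above the diet A mean of PAICS, and all 4 were below the diet A mean of PRPS2, where the difference was -0.25 ± 0.24. None of the 10 genes had an unadjusted p under 0.05, as did 2.03% of all features. None had diets that did not overlap, as did 1.49% of all features with diet E higher and 1.20% with diet E lower.

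Diet F gave 8 of 10 genes a lower mean than diet A, with a median difference of -0.09 against 0.01 over all genes. PPAT was at -0.35 ± 0.27 and PRPS2 at -0.31 ± 0.24, with all 4 diet F birds under the diet A mean in both cases and an adjusted p of 0.993 for each in limma. None of the 10 genes had an unadjusted p under 0.05, against 1.68% of all features, and in none were the diets without overlap, against 1.18% with diet F higher and 0.663% with diet F lower. GART, GMPS and ATIC were close to diet A, at -0.0030, -0.0072 and -0.08.

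Diet H had a lower mean than diet A for 7 genes, with a median difference of -0.27 against 0.01 over all genes. The differences reached -0.55 ± 0.41 for ADSS2, -0.54 ± 0.27 for PPAT, -0.52 ± 0.28 for ADSS1 and -0.45 ± 0.24 for PRPS2, and 0.41 ± 0.24 for IMPDH2. Their adjusted p values in limma were 0.551 for ADSS2 and 0.521 for each of the other named genes. No gene had an unadjusted p under 0.05, against 8.21% of all features. The diets overlapped in all 10 genes, and did not in 1.27% of all features with diet H higher and 0.875% with diet H lower. Without diet H replicates 3 and 4 the median difference was 0.01, PPAT stood at 0.03 ± 0.19, PRPS2 at -0.01 ± 0.23, ADSS2 at 0.36 ± 0.32, ADSS1 at -0.04 ± 0.29 and IMPDH2 at -0.04 ± 0.23. The median difference of the T and NK cell markers in this comparison was 0.43 over 9 genes, of which 6 had an unadjusted p under 0.05 and 0 an adjusted one. These markers also had a positive median difference from diet A with diet F, at 0.33, and with diet E, at 0.23. The log2 of their summed signal was 9.61 to 9.83 with diet A and 9.89 to 10.65 with diet H, and their part in the values above was not tested. Other lists shifted in diet H minus diet A too. The median was 0.41 for stellate cell and fibroblast markers, 0.39 for intestine and pancreas markers and -0.31 for endothelial markers. Diet H replicates 1 and 2 did not share these shifts. The median deviation of the stellate cell and fibroblast list was -0.21 and -0.42 in them, against -0.25 to -0.06 with diet A. For intestine and pancreas markers it was -0.18 and -0.22 against -0.42 to -0.02, and for endothelial markers -0.02 and 0.05 against -0.07 to 0.21.

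Diets E and F differed most in PPAT, by 0.55 ± 0.27 with diet E higher, which is 1.46-fold, with a 95% interval of -0.02 to 1.11 and an adjusted p of 0.99998 in limma. PAICS was 0.30 ± 0.21 higher on average with diet E, where all 4 birds lay above the diet F mean. The median over the 10 genes was 0.08, against -0.00099 over all genes, with 7 genes higher and 3 lower. None had an unadjusted p under 0.05, against 1.35% of all features. Besides PPAT, whose diets did not overlap, 0 genes had all diet E birds below all diet F birds, against 0.615% of all features.

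The largest differences of any comparison were between diets H and E. For PPAT, diet H minus diet E was -0.73 ± 0.27, 1.66-fold lower, with a 95% interval of -1.30 to -0.17. For PAICS it was -0.59 ± 0.21, 1.51-fold lower, with an interval of -1.04 to -0.15. Both had an adjusted p of 0.942 in limma. They were the only genes of the 10 with an unadjusted p under 0.05, at 0.0141 and 0.0122, a threshold that 2.72% of all features passed in this comparison. No diet H bird was above the diet E mean in either gene, yet diet H replicate 2 lay within the diet E range in both. The diets overlapped in all 10 genes, and did not in 0.630% of all features with diet H higher and 0.404% with diet H lower. Without diet H replicates 3 and 4 the differences were -0.17 ± 0.19 for PPAT and -0.23 ± 0.18 for PAICS.

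Diet H against diet F gave 7 genes a lower and 3 a higher mean, with a median difference of -0.21 against -0.02 over all genes. The outermost were ADSS1 at -0.42 ± 0.28, ADSS2 at -0.36 ± 0.41 and ADSL at 0.35 ± 0.33, each with an adjusted p of 0.971 in limma. None of the 10 had an unadjusted p under 0.05, against 2.60% of all features, and the diets overlapped in each, whereas 0.495% of all features had diet H wholly higher and 0.644% wholly lower. ADSS1 stood at 0.06 ± 0.29, ADSS2 at 0.54 ± 0.32, ADSL at 0.47 ± 0.40 and the median at 0.10 without diet H replicates 3 and 4. Over all 4 diets, the F test gave PPAT the lowest unadjusted p of the 10 genes, 0.0569, and PAICS the next, 0.0726, with an adjusted p of 0.984 for every one of the 10 and 2.13% of all features at an unadjusted p under 0.05.

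**Figure D2:**
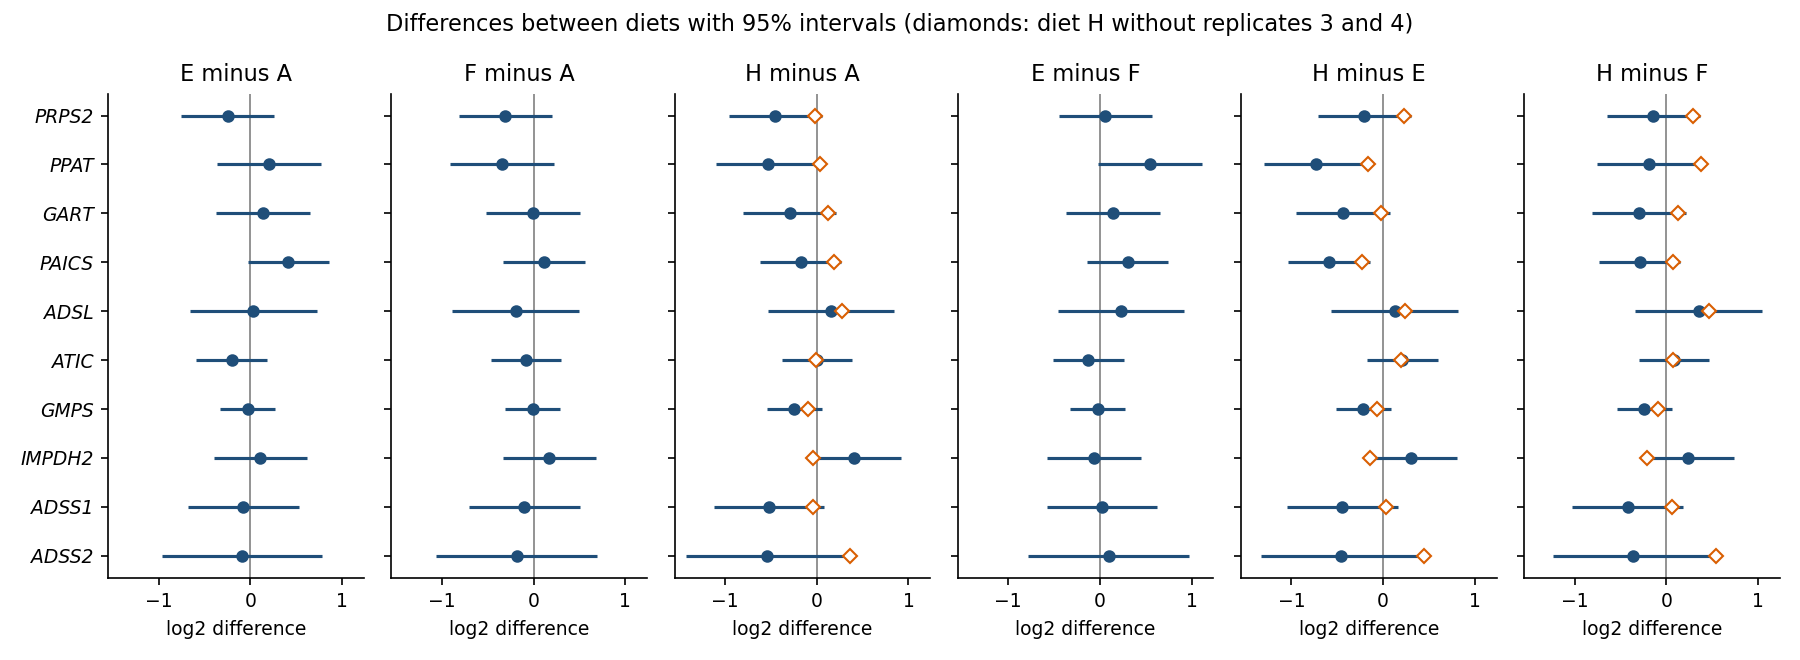
Log2 difference of diet means (horizontal axis) for each gene in the 6 comparisons, with 95% intervals from limma as bars; diamonds give the 3 comparisons with diet H once its replicates 3 and 4 are left out. Only the PPAT and PAICS intervals for diet H minus diet E stay clear of 0, and their diamonds lie closer to it.

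With 4 birds a diet, the SE of a difference ran from 0.14 for GMPS to 0.41 for ADSS2. At the median SE over all features, 0.22, a 95% interval reaches 0.46 log2 units to either side. A smaller difference in such a feature was not detectable at this number of birds, and with adjustment over all features the limit lies further out. PPAT and PAICS in diet H minus diet E, at -0.73 and -0.59, had an adjusted p of 0.942 in limma.

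The sample titles end in numbers, and replicates 1 and 2 of each diet have numbers up to 25 while replicates 3 and 4 have higher ones. Within each diet, replicates 1 and 2 have consecutive numbers, and so do replicates 3 and 4. Diet H replicates 3 and 4, which stood apart, are numbers 46 and 47. The limma and permutation tests took every bird as independent, and likeness within such neighbours was not tested. What the numbers stand for is not stated. With the diet means in the fit, the difference of the birds with higher numbers from the rest was -0.79 ± 0.22 for ADSS2, -0.46 ± 0.12 for PRPS2, -0.45 ± 0.17 for ADSS1 and -0.42 ± 0.14 for GART (log2 ± SE). Their adjusted p values in limma were 0.0637, 0.0620, 0.0994 and 0.0772, and no feature passed. These 4 genes had an unadjusted p under 0.05, as did 31.6% of all features, so 4 of 10 is near the background. Without diet H replicates 3 and 4, the differences were -0.45 for ADSS2, -0.32 for PRPS2, -0.29 for ADSS1 and -0.28 for GART.

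A further question was whether the enzymes moved together from bird to bird. Over the 45 pairs of the 10 genes, the median Pearson's r across 16 birds was 0.28, against 0.0065 over all 66441628 pairs of genes on the arrays. Wide correlations were common among all genes, whose pairs had their 5 and 95 percentiles at -0.77 and 0.78. After adjustment over the 45 pairs, 18 passed the permutation test at 0.05, of which 13 were positive and 5 negative. The weakest of either sign were GMPS with ADSS1 at r = 0.62 and GART with IMPDH2 at r = -0.60. These were at the 86.7 and 14.6 percentiles of all gene pairs, so an r of this size was common on these arrays. The permutation test does not take that background into account, and the 18 pairs do not measure coordination particular to these genes. Without diet H replicates 3 and 4 the median over the 45 pairs was -0.05 and 0 pairs passed, with 9 at an unadjusted p under 0.05. The weakest of the 9 of either sign were PRPS2 with GART at 0.54 and IMPDH2 with ADSS1 at -0.54. Over those 14 birds they were at the 88.4 and 11.6 percentiles of all gene pairs, so here too such an r was common among all genes. By Spearman's rho 11 pairs passed with all birds and 2 without these 2 birds, namely IMPDH2 with ADSS2 and ADSL with ADSS1. Leaving out diet H replicate 4 alone also left 11 by r. On deviations from the diet means, with birds exchanged only within a diet, 1 pair passed, and within the 8 birds of the lower and the higher title numbers 0 and 8 passed.

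PPAT and PAICS had the highest Pearson's r of the 45 pairs over the 16 birds, with r = 0.82 and rho = 0.60 (n = 16, permutation p = 0.00034 for r, 0.00306 adjusted over the 45 pairs). This r was at the 96.6 percentile of all gene pairs, while by rho PRPS2 with ADSS2 was highest, at 0.75. It was 0.71 among the 8 birds with title numbers up to 25 and 0.87 among the other 8, 0.83 within diets, and 0.52 without diet H replicates 3 and 4, which were also the birds farthest from the PPAT median. The relation therefore rests in part on those birds: its adjusted permutation p was 0.247 over the other 14, and for rho it was 0.0544 with all 16. The PPAT and PAICS loci lie on chromosome 4 and overlap by 27781 bases in the RefSeq annotation of assembly GRCg7b. Probe positions were not used here, so signal shared between the features was not tested and the correlation of this pair is uncertain in that respect.

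The consecutive enzymes PPAT and GART had r = 0.71 (n = 16, adjusted permutation p = 0.0134; rho = 0.63), which was 0.27 without diet H replicates 3 and 4. Leaving out diet H replicate 3 alone gave r = 0.50 with an adjusted permutation p of 0.150, and leaving out replicate 4 alone gave 0.66 with 0.0596. GART and PAICS had r = 0.49 (n = 16, adjusted permutation p = 0.112), which was 0.78 without diet A replicate 1, the bird with the highest GART value, with an adjusted p of 0.00585 in the permutation test. Without the birds farthest from the GART median, diet A replicate 1 and diet H replicate 3, it was 0.56, and without diet H replicates 3 and 4 it was -0.16. PAICS and ADSL had r = 0.02 and rho = -0.06 (n = 16, adjusted permutation p = 0.937; r = -0.11 without diet E replicate 2 and diet H replicate 3, the birds farthest from the PAICS median).

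ADSL and ATIC, which act one after the other on the way to IMP, kept their relation without the birds that stood apart. Their r was 0.69 and their rho 0.69 (n = 16, permutation p = 0.00313, 0.0130 adjusted over the 45 pairs). This r was at the 90.6 percentile of all gene pairs, so an r of this size was common on these arrays. Without diet H replicates 3 and 4 the r was 0.72, within diets 0.75, and in the 8 birds of either range of title numbers 0.85 and 0.67. Leaving out the 2 birds farthest from the ADSL median, diet F replicate 1 and diet H replicate 1, gave 0.64, and leaving out any single bird gave 0.63 to 0.75. With 14 birds the permutation p was 0.00375, or 0.0780 after adjustment, and this r was the highest of the 45 pairs over those birds. Over the same 14 birds it was at the 96.4 percentile of all gene pairs. The rho of ADSL with ATIC over those birds was 0.69, with an adjusted permutation p of 0.112. Both genes were low in diet F replicate 1 and diet A replicate 3 and high in diet F replicate 4 and diet A replicate 2.

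**Figure D3:**
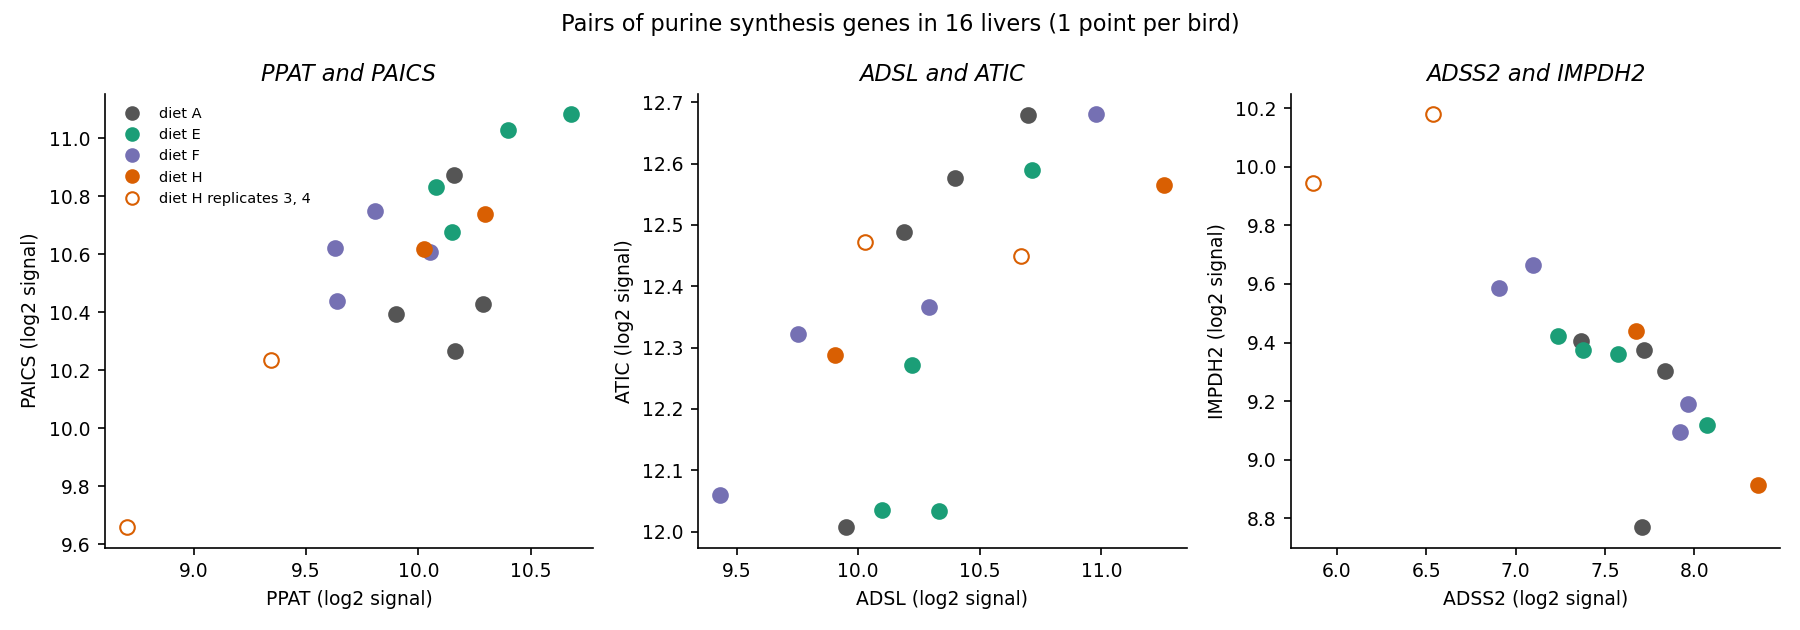
Log2 signal of 3 pairs of genes, 1 point per bird, coloured by diet, with diet H replicates 3 and 4 as open circles. PPAT and PAICS are lowest together in the open circles, ADSL and ATIC increase together with the open circles inside the cloud, and IMPDH2 decreases from left to right as ADSS2 increases.

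The strongest negative relation was that of IMPDH2 with ADSS2, which act on different branches from IMP. IMPDH2 on the GMP side and ADSS2 on the AMP side had r = -0.86 and rho = -0.89 (n = 16, permutation p = 5e-05, 0.00225 adjusted over the 45 pairs), at the 1.46 percentile of all gene pairs. It was -0.77 without diet H replicates 3 and 4, with rho = -0.83, for which the adjusted permutation p was 0.0207, while that of r was 0.0567. Within the 8 birds of either range of title numbers r was -0.88 and -0.83, and within diets -0.84. Leaving out diet A replicate 4 and diet H replicate 3, the birds farthest from the IMPDH2 median, gave -0.95. ADSS1 had r = -0.80 with IMPDH2 (-0.54 without diet H replicates 3 and 4). The other pairs across the branches did not share this opposition. GMPS had r = 0.62 with ADSS1 and 0.55 with ADSS2 (0.25 and -0.06 without these birds). ADSL had r = 0.28 with IMPDH2 (0.45) and -0.17 with GMPS (-0.17). Within the AMP branch, ADSL had r = -0.46 with ADSS1 (-0.71). Without diet H replicates 3 and 4 the rho of this pair was -0.77, with an adjusted permutation p of 0.0457, while that of r was 0.0780. The opposition of IMPDH2 was not confined to the branches. Before the fork, its r was -0.79 with PPAT (-0.46), -0.76 with PRPS2 (-0.51) and -0.60 with GART (-0.08). With PAICS it was -0.50 (0.17) and with ATIC 0.19 (0.11).

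ADSS1 and ADSS2, the paralogues of the AMP branch, had r = 0.80 and rho = 0.74 (n = 16, adjusted permutation p = 0.00306). This was 0.83 without diet F replicate 1 and diet H replicate 3, the birds farthest from the ADSS1 median, 0.65 without diet H replicates 3 and 4, and 0.34 and 0.83 in the birds with lower and higher title numbers. Whether the probes of these related genes also catch each other's transcripts was not tested. On the GMP branch, IMPDH2 and GMPS had r = -0.45 (n = 16, adjusted permutation p = 0.132), which was 0.16 without diet H replicates 3 and 4.

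The 7 genes that were low in diet H replicates 3 and 4 had a positive r in all 21 of their pairs, with a median of 0.65, and IMPDH2 had a negative r with each of the 7, with a median of -0.76. This grouping was made after the values were seen. It was based on diet H replicates 3 and 4 lying outside the other birds, so these signs over all birds are in large part built in. Without those birds, 14 of the 21 pairs were positive with a median of 0.25, and IMPDH2 was negative with 5 of the 7 with a median of -0.46. The median r of PAICS with the other 9 genes was 0.36 with all birds and -0.16 without the pair. GART kept the highest median r of the 10 genes with the others, 0.65 with all birds and 0.27 without them.

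**Figure D4:**
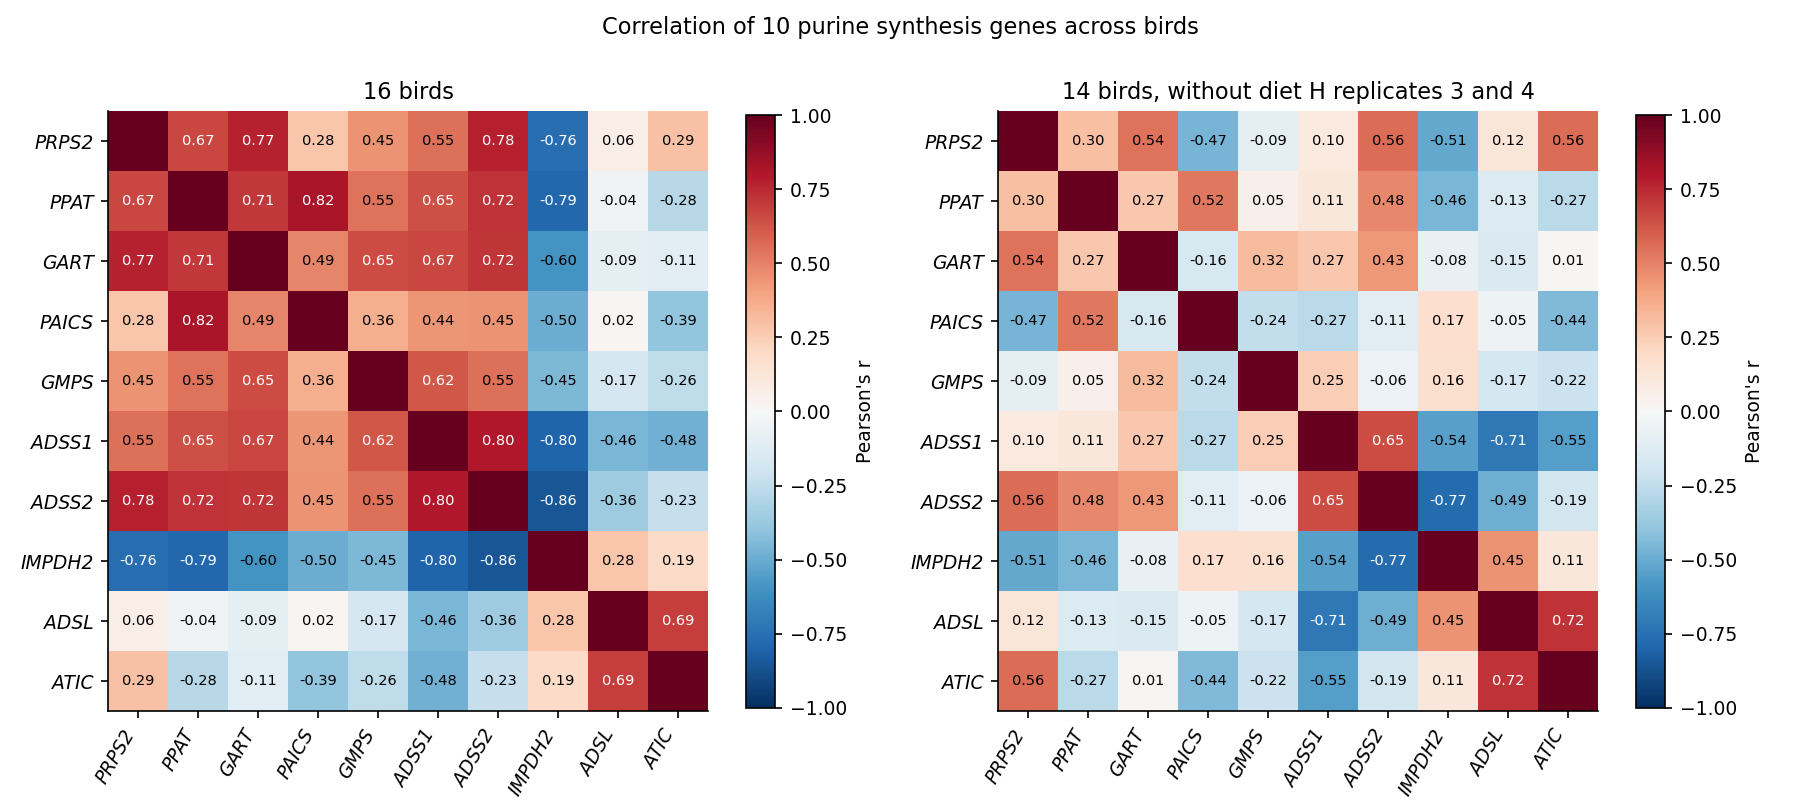
Pearson's r for each pair of the 10 genes over 16 birds (left) and over 14 birds without diet H replicates 3 and 4 (right), on a colour scale from -1 to 1. The block of positive values at the upper left has a median of 0.65 and pales to 0.25 on the right. ADSL with ATIC, IMPDH2 with ADSS2 and ADSL with ADSS1 stand at 0.72, -0.77 and -0.71 there. The genes of the block were grouped for being low in diet H replicates 3 and 4, so its sign on the left is in large part built in.

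Genes around the pathway were taken from lists of related steps and set against the mean of the 10 standardized values in each bird. That mean does not stand for all 10 alike: over the 16 birds its r was 0.87 with GART, 0.85 with PRPS2 and 0.83 with PPAT, but 0.20 with ADSL, 0.09 with ATIC and -0.68 with IMPDH2. Over the 14 birds it was -0.01 with PAICS. Likeness to it therefore describes mainly the 7 genes that were low in diet H replicates 3 and 4. The mean was itself lowest in those birds, so genes picked for a large r with it tend to lie at an end of their range there. In every list and all 6 comparisons, 0 genes passed the adjusted limma test. At an unadjusted p under 0.05, 2 of the 16 measured one-carbon genes and 0 of the 15 salvage and urate genes passed in diet H minus diet A, where 8.21% of all features did. Of the 16 one-carbon genes, 7 were positively correlated with the mean of the purine genes, with a median r of -0.08, against 0.02 over all genes compared. The closest was MTHFD1, which makes the formyl-folate used by GART and ATIC, at r = 0.90 (0.60 without diet H replicates 3 and 4). Its log2 signal was 10.53 and 10.70 in those birds and 11.03 to 11.65 in the other 14. MTHFD1 was picked as the largest r of the 16 genes, and genes outside the lists reached a higher one, up to 0.94 for TESK2. PSAT1, of serine synthesis, had r = 0.85 (0.42), DLD, a subunit of the glycine cleavage system and other dehydrogenases, 0.78 (0.42), and MTHFS 0.72 (0.20).

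Among the 15 measured genes of purine salvage, breakdown and transport, 10 had a positive r with the mean of the 10 enzymes, with a median of 0.19. ADK, which phosphorylates adenosine, had r = 0.85 (0.50 without diet H replicates 3 and 4), and its signal was 11.17 and 11.61 in those birds against 11.83 to 12.38 in the others. The salvage enzymes DCK and HPRT1 had r = 0.74 (0.69) and 0.72 (0.46). SLC29A1, a nucleoside transporter, was opposed, with r = -0.86 (-0.63), and read 9.47 and 8.32 in those birds against 6.71 to 8.42. Of the other listed genes of PRPP supply and purine synthesis, 2 of 7 were measured: PRPSAP1, a PRPP synthetase-associated protein, had r = -0.61 (-0.07), and PRPSAP2 0.46 (0.31).

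In the lists further out, the 7 genes of substrate supply had a median r of -0.25, with RPIA, which makes ribose 5-phosphate, at 0.70 (0.39 without diet H replicates 3 and 4) and GOT1, an aspartate aminotransferase, at -0.62 (-0.33). The 13 nucleotide kinases and reductase subunits had a median of -0.27, led by NME2 at -0.77 (-0.58). The 8 pyrimidine genes had a median of -0.04, with DTYMK at -0.71 (-0.28) and CMPK1 at 0.69 (0.37). The 12 regulators had a median of -0.18, with NRF1 at -0.71 (-0.46) and MYCN at -0.68 (-0.12). The 37 cell cycle genes were positive in 31 cases, with a median of 0.39, and in 35 cases with a median of 0.42 without the birds that stood apart. Over all genes compared these medians were 0.02 and -0.03. The median deviation of the list was highest in diet E replicate 2 (1.25), diet H replicate 2 (0.97) and diet A replicate 4 (0.72). Genes that share such birds are not independent cases. UHRF1 led the cell cycle genes at 0.72 (0.58), with MKI67, a mark of dividing cells, at 0.68 (0.58). Among the cell type lists, the 9 intestine and pancreas markers were negative in all 9 cases, with a median of -0.58 and of -0.44 without those birds. The 13 hepatocyte markers were positive in 10 cases, with a median of 0.36, and in 7 with a median of 0.07 without them.

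Outside these lists, the genes whose signal over the 16 birds was most like the mean of the 10 enzymes were TESK2 (r = 0.94), CRY1 (0.93), HS6ST1 (0.92), SELENOP1 (0.92), BCKDHB (0.92) and NCALD (0.91), out of 10081 genes compared. All 6 were below the other 14 birds in diet H replicates 3 and 4. TESK2, for example, read 7.20 and 7.44 there and 7.79 to 8.52 elsewhere. Over the other 14 birds their r was 0.68 to 0.78, and the 6 most alike genes were then NELL2, LSM7, PROZ, SMARCD3, MRPS10 and COMMD5, with r from 0.79 to 0.85. The 2 sets of 6 shared 0 genes. Because the genes were ranked by this measure, these values are a description and no test was made.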

How the data were processed

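Total RNA from 16 livers was transcribed with a whole-transcript kit, labelled with biotin and hybridised to arrays, per the labels' protocols. GCOS 1.1.1 is named in the submitters' processing notes. How background was corrected, values normalized and probes summarised, and on which genome build, is not stated in the labels or file headers. The deposited table holds log2 values, 1 column per bird, with array medians that lie close together. It was used as deposited. Scanner output was not used here.

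Of 20804 features, 12300 carry 1 gene symbol in the platform annotation, 256 carry several and 8248 none, and only the first kind was named. Symbols, genomic spans and overlaps were looked up by gene number in RefSeq genes of assembly GRCg7b, in which all 10 genes were found, and no symbol had to be changed. Replicates were numbered in accession order and that number pairs nothing.

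Limma 3.58.1 in R 4.3.3 fitted 1 mean per diet over all 16 birds, with 12 residual degrees of freedom, and tested the 6 differences and the F statistic two-sided with Benjamini-Hochberg adjustment at 0.05 over all features. Correlations across birds used two-sided permutation tests with 100000 resamples, adjusted over the 45 pairs; the smallest p they can give is 1e-05. The fits and the correlations were first tested on simulated data with known answers. All 10 genes were named, as were consecutive enzymes, the PPAT and PAICS neighbours, the paralogues, IMPDH2 with GMPS, the highest and lowest pair, the 6 most alike genes with a mean above the 20th percentile of all values (4.31), and up to 4 genes per list by the size of r. The members and lists were chosen with earlier results of these data known. Depth does not apply to arrays; the number of birds limits the precision. Alternatives covered the normalization, dim features, the moderation, array weights, the diets in the fit, a trend on genomic span, the title numbers and the birds left out.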

Additional observations from a re-analysis of the deposited data

Results flagged for a closer look

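In diet A, IMPDH2 read 8.769 in replicate 4, while the other 3 birds lay between 9.304 and 9.405. The gap to the nearest of them was 0.842 of the group's range, above Dixon's 95% critical value of 0.829 for 4 samples. The diet A mean was 9.213 with this bird and 9.361 without it. It was the only value that stood out in this way among 44 groups of 4 birds examined, and chance alone marks about 1 in 20 such groups.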

How the results depend on the processing

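Over 133 limma tests of diets under 26 settings, the main one included, 0 of the 10 genes passed. The lowest adjusted p of a member was 0.110. Only 1 of the tests, E minus A with array weights, called any feature (1). Averaging all features of a gene gave no other value, since each gene has 1. No paired analysis was possible because the labels give no replicate numbers shared by the diets. Differences smaller than their SE were given no direction. Without diet H replicates 3 and 4 together, the median differences were 0.01095 (H minus A), 0.007947 (H minus E) and 0.0994 (H minus F). The sign then turned in H minus A for PPAT (0.0329), GART (0.1201), IMPDH2 (-0.03602) and ADSS2 (0.3576), in H minus E for IMPDH2 (-0.142), ADSS1 (0.03673) and ADSS2 (0.4491), and in H minus F for GART (0.1231), PAICS (0.07568) and ADSS1 (0.05942). The other alternatives turned the sign of none of the differences larger than their SE.

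Without these birds the median r was -0.04748. Also without them, it was -0.08132 by rho, -0.0077 with the span trend out and 0.02398 within diets. With all 16 birds it was 0.165 by rho, 0.269 with the span trend out and 0.259 within diets. It was 0.00797 among the lower title numbers, and leaving out 1 bird gave 0.122 to 0.344. Pairs called were 11 by rho, 10 with the span trend out, 1 within diets, 0 and 8 among lower and higher title numbers, and 11 to 21 with 1 bird left out (11 without diet H replicate 4). Without both birds they were 0, and by rho, with the span trend out and within diets 2, 0 and 1. Without both birds the sign turned for GART with PAICS: -0.1578, or -0.1383 with the span trend out as well and -0.4801 within diets as well. Among lower title numbers this pair was at -0.1976, and within diets over all 16 birds at 0.326. Without both birds the sign also turned for GMPS with IMPDH2: 0.1591, 0.2842 with the span trend out, 0.1361 within diets and 0.1297 by rho. Among lower title numbers that pair was at 0.3183, and within diets over all 16 birds at -0.291. For PAICS with ADSL, whose r was near 0, the sign turned by rho (-0.05588), with arrays centred (-0.01169) and among higher numbers (-0.04017). Without both birds it was -0.04748, -0.08132 by rho and -0.1556 within diets, and with 1 bird left out -0.129 to 0.07985. The count of pairs called and the 3 combinations with both birds left out were chosen after seeing the data. The causes were not tested.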
